A study of Mus musculus with 16 samples.

Results

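At its proximal end the assembled mouse chromosome 9 begins with an array of satellite DNA, and peaks of immunoprecipitated 5-hydroxymethylcytosine (5hmC) were called across it in 7 of the 12 peak lists of the study. The peaks described here were chosen by chromosome and start alone: every peak on chromosome 9 whose start lies from 3000000 to under 4000000 in the 0-based files, with no filter on fold, p-value or q-value. There were 245 of them among 7582 peaks in all lists. Because they were chosen from called peaks, their counts, positions, folds and q-values are given as a description, and tests are given only for the comparison of genotypes over library numbers.

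The DNA came from c-kit+ bone marrow cells, that is, blood stem and progenitor cells, of mice. All groups carried NHD13, a NUP98-HOXD13 fusion transgene used as a model of myelodysplastic syndrome. In the control group (labelled NHD13) Tet2 was intact, and in the knockout group (labelled NHD13/TET2-KO) Tet2 was lost. Each group had 6 libraries enriched with the anti-5hmC antibody HMC31. By its title a library belonged to pool 1, 2 or 3 and carried a library number. The knockout libraries were those numbered 1 and 7, and the control libraries those numbered 3 and 5. The pools were taken as repeat immunoprecipitations of 1 library number, so each genotype had 2 independent numbers. How many mice stand behind a number, their age, and the promoter that drives the transgene are not given in the sources used here. The 4 input samples were not analysed here. All 7582 peaks carried a name that contains Nanog, a pluripotency factor that no label mentions, so the lists are linked to 5hmC by their sample labels only.

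5-Methylcytosine is the common DNA methylation mark of mammals, placed mostly at CG dinucleotides (CpG). TET enzymes, TET2 among them, oxidise it to 5hmC, and TET2 is among the genes most often mutated in myeloid disease. Major satellite is the tandem repeat of mouse pericentromeric heterochromatin. It is packed with repressive histone marks and is normally methylated. Most of it is missing from the assembly, so reads from the many genomic copies have only a few assembled places to align to.

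In the reference of the submitters' build (mm10, GRCm38), all bases of chromosome 9 before 3000001 are unknown. From there an array ran to base 3038476, a length of 38476 bp. The sequence matched itself best at a shift of 234 bp, and 101 copies had exactly that length. Bases of the array matched the common repeat unit at 95.7%. GC content was 34.9% and there were 777 CpG, or 2.02 per 100 bp, against 0.626 per 100 bp in the rest of the window. A stretch of 31 bases of the array occurred a median of 14 times in the assembled genome, against 1 time in the rest of the window.

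The following copies show the repeat under the peaks and outside them, on the plus strand of GRCm38, with CpG in capitals. Copies were ranked by their match to the common unit only among those within 20 bp of its length. The first is 1 of the 2 identical copies that were closest to the common unit among these (98.7% match), at chr9:3020844-3021077, and every one of the 7 lists had a summit in it. The second, at chr9:3024470-3024703, held the summit of the peak with the highest fold. The third, at chr9:3000470-3000703, lies in the first region found in all 7 lists. The fourth, at chr9:3005147-3005381, and the fifth, at chr9:3008836-3009085, were in no peak of any list. Of the ranked copies in no peak they were the closest to the common unit (96.2%) and the farthest from it (83.6%).
copy with summits of 7 lists: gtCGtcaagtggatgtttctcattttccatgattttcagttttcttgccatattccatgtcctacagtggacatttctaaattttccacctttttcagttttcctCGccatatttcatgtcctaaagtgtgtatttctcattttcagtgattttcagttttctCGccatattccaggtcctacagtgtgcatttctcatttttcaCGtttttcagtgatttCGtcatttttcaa
copy under the highest fold: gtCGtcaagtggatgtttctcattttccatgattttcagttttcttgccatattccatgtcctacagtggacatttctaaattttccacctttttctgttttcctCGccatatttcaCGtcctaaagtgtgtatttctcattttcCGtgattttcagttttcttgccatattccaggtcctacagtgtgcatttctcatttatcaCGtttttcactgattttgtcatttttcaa
copy in the first shared region: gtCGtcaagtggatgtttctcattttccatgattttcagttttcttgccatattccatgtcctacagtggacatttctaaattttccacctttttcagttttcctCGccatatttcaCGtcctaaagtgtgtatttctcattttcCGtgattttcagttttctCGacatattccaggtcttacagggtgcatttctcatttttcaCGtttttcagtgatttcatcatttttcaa
closest copy in no peak: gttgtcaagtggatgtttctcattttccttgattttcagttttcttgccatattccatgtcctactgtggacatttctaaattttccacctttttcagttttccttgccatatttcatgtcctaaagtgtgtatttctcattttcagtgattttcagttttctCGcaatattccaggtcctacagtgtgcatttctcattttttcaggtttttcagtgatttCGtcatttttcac
farthest copy in no peak: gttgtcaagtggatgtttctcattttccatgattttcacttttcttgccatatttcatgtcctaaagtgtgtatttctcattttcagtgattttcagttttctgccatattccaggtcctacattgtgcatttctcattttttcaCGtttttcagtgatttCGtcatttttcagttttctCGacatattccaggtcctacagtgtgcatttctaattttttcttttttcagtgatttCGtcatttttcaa
The first 3 hold 5, 5 and 6 CpG, and the last 2 hold 3 and 4. The 3 of the fourth copy include a CpG that joins its last base to the next copy, so only 2 are printed in capitals. The copies in no peak are thus the same kind of repeat, and the fourth is 1 of 4 identical copies in the array, of which the other 3 lay partly under peaks.

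Peaks were found in both genotypes but not in every library number. Knockout number 7 had 36, 33 and 33 peaks in pools 1, 2 and 3. Control number 5 had 32, 37 and 34. The 40 peaks of knockout number 1 were all in pool 1, with 0 in the other 2 pools, while control number 3 had 0 in all 3 pools. The groups therefore overlapped, with 142 peaks in knockout lists and 103 in control lists. The 5 lists without such peaks were short, with 49, 56, 47, 15 and 9 peaks, and none of their 176 peaks had a q-value under 0.05. Whether list length and the absence of satellite peaks share a source was not tested.

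**Figure D1:**
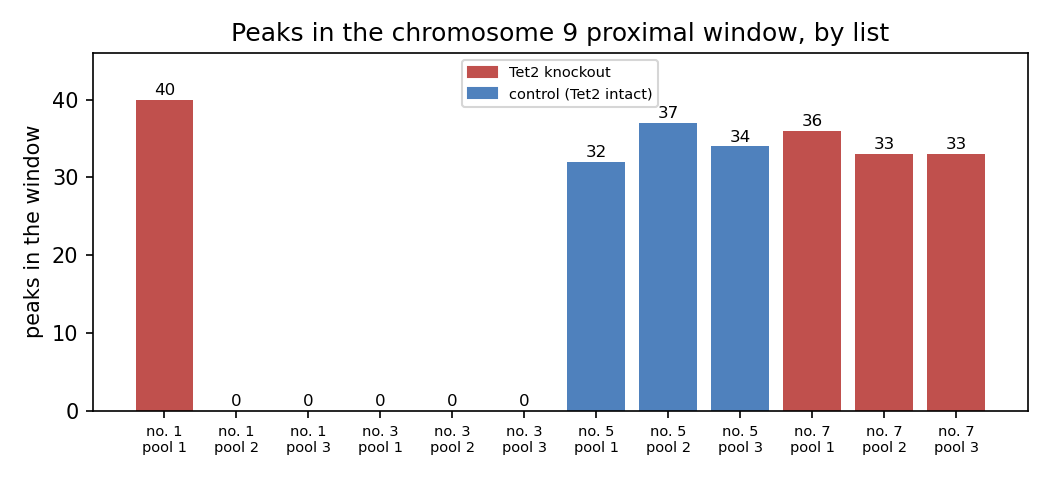
Number of peaks in the chromosome 9 proximal window (bar height) in each of the 12 lists, by library number and pool, red for Tet2 knockout and blue for control. Numbers 5 and 7 have 32 to 37 peaks in every pool, number 1 has 40 in pool 1 only, and number 3 has 0.

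Over library numbers, the geometric mean of the count plus 1 was 1.85 times as high for the knockout as for the control. With the added 1 taken off again, the means were 9.98 and 4.94 peaks. Numbers of the same genotype lay farther apart than that (two-sided exact permutation test, p = 1.0, n = 2 against 2). An exact test of this size cannot go below p = 0.333. In pool 1 alone, where number 1 had peaks and number 3 had none, the ratio was 6.78 (exact permutation p = 0.333, the smallest possible). In pools 2 and 3, where neither had peaks, it was 0.946 and 0.986 (exact permutation p = 1.0 in each). Covered length was 5.46 times as long in the knockout (exact permutation p = 0.667), a ratio set by the lists at 0. The share of a list's peaks in the window averaged 9.47% for the knockout against 5.07% for the control, 4.40 percentage points apart (exact permutation p = 0.667).

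The peaks of the window made up most of the peaks of the study that had a q-value under 0.05. Of the 245, 215 had a q-value under 0.05, or 87.8%, against 4.22% of all 7582 peaks, themselves included. They were 67.2% of the 320 peaks at that threshold. Per list with such peaks, 35 of 40 passed in number 1 pool 1. In pools 1 to 3, 27 of 32, 31 of 37 and 31 of 34 passed in number 5. In number 7, 30 of 36, 30 of 33 and 31 of 33 did. Of all peaks of a list, 48 of 130 passed in number 1 pool 1. Only 38 of 2337 and 42 of 3924 passed in pool 1 of numbers 5 and 7. It was 47 of 243 and 50 of 246 in pools 2 and 3 of number 5, and 48 of 270 in number 7 pool 2. In number 7 pool 3, 47 peaks passed. The 4.22% is thus weighted to the longest lists, and the contrast was smaller within the shorter lists that had such peaks. Peaks of the window were 30.8% of the number 1 pool 1 list, but 1.37% of number 5 pool 1 and 0.917% of number 7 pool 1, whose lists were the longest (2337 and 3924 peaks). In pools 2 and 3 of numbers 5 and 7 they were 12.2% to 15.2%.

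All but 2 of the 245 peaks lay in the array. The array peaks were 201 to 2426 bp wide, and 63 of the 245 were at least 1000 bp wide, against 34 of all other peaks. The median width was 394.5 bp in number 1 pool 1, where the signal was broken into more pieces. It was 711.5, 493 and 584.5 bp in pools 1 to 3 of number 5, and 612.5, 705 and 602 bp in number 7. Peaks covered 53.0% of the array in number 1 pool 1. Coverage was 69.4%, 64.7% and 65.5% in number 5 and 73.9%, 71.0% and 71.9% in number 7. Number 7 was thus above number 5 in each pool, and number 1, of the same genotype as number 7, was below both.

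**Figure D2:**
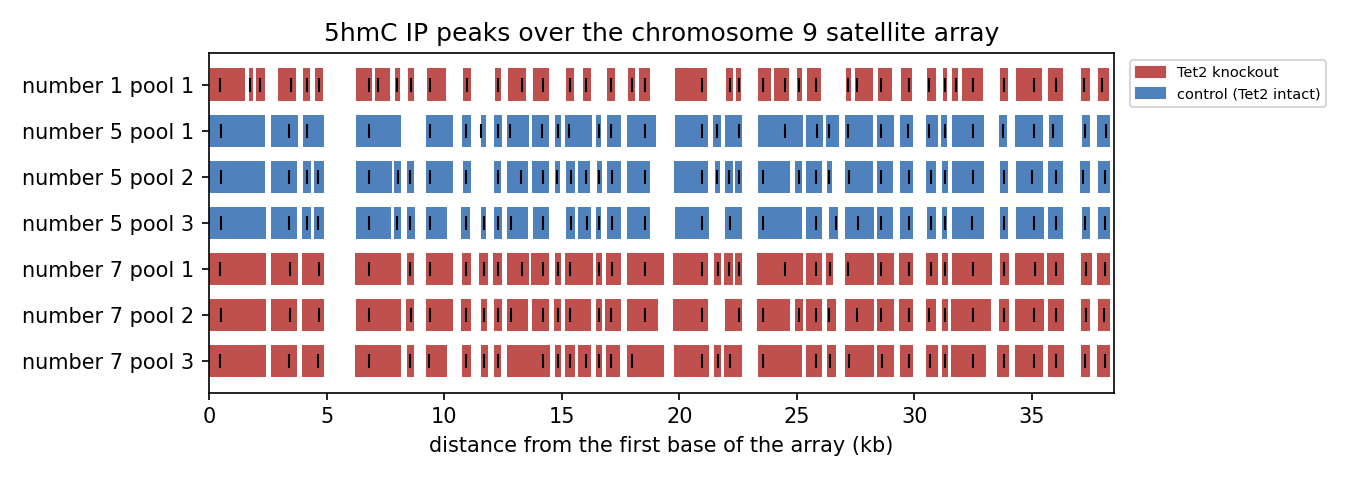
Peaks (bars) and their summits (black ticks) in the 7 lists with peaks, against distance from the first base of the array in kb, red for Tet2 knockout and blue for control. The same stretches are covered in list after list, and the same gaps recur, the widest of them 1311 bp.

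Overlapping peaks of all lists merged into 34 regions, 32 of them in the array, 258 to 2426 bp wide. All 32 held peaks of both genotypes. That is 32 of the 34, beside 4.06% of the 6230 merged regions of the whole study. In all, 26 regions were in all 7 lists, 3 in 6, 2 in 5 and 1 in 4, and 24 had a q-value under 0.05 in all 7. The matching shares of all merged regions of the study are not given here. Outside the window, places on chromosomes 2, 6, 9, 12 and 14 also had peaks with a q-value under 0.05 in 7 lists. Bases in a peak of all 7 lists came to 19955, 51.9% of the array, and 8968, or 23.3%, were in no peak. Knockout lists alone covered 1921 bp and control lists alone 255 bp.

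The first 10 regions present in all 7 lists, by position, were chr9:3000001-3002426, chr9:3002609-3003777, chr9:3003937-3004902, chr9:3006214-3008153, chr9:3009217-3010380, chr9:3010723-3011153, chr9:3012094-3012468, chr9:3012662-3014510, chr9:3015141-3016322 and chr9:3016856-3017535. The widest peak of all, 2426 bp in number 7 pool 1, filled the first of them from the first known base of the chromosome. The fold there was 1.72 in number 1 pool 1. It was 11.7, 5.42 and 5.73 in pools 1 to 3 of number 5, and 11.8, 5.83 and 5.92 in number 7. Numbers 5 and 7 were close within each pool, and pool 1 stood above the other pools. The seventh of these regions was among the weakest, with folds of 1.37 in number 1, 2.41, 2.23 and 2.48 in number 5, and 3.98, 2.31 and 2.51 in number 7.

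The highest fold was in chr9:3023308-3025253. It reached 13.0 at a summit at base 3024487 in number 7 pool 1, with 6.55 and 6.97 in pools 2 and 3. In number 5 the region had 12.9, 6.03 and 6.32. It was the highest region of 6 of the 7 lists. In number 1 pool 1 its fold was 1.81 and the highest, 1.89, was in chr9:3008390-3008737. Control number 5 and knockout number 7 were close within each pool at this region, pool 1 of both was higher than their pools 2 and 3, and knockout number 1 was far below either.

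**Figure D3:**
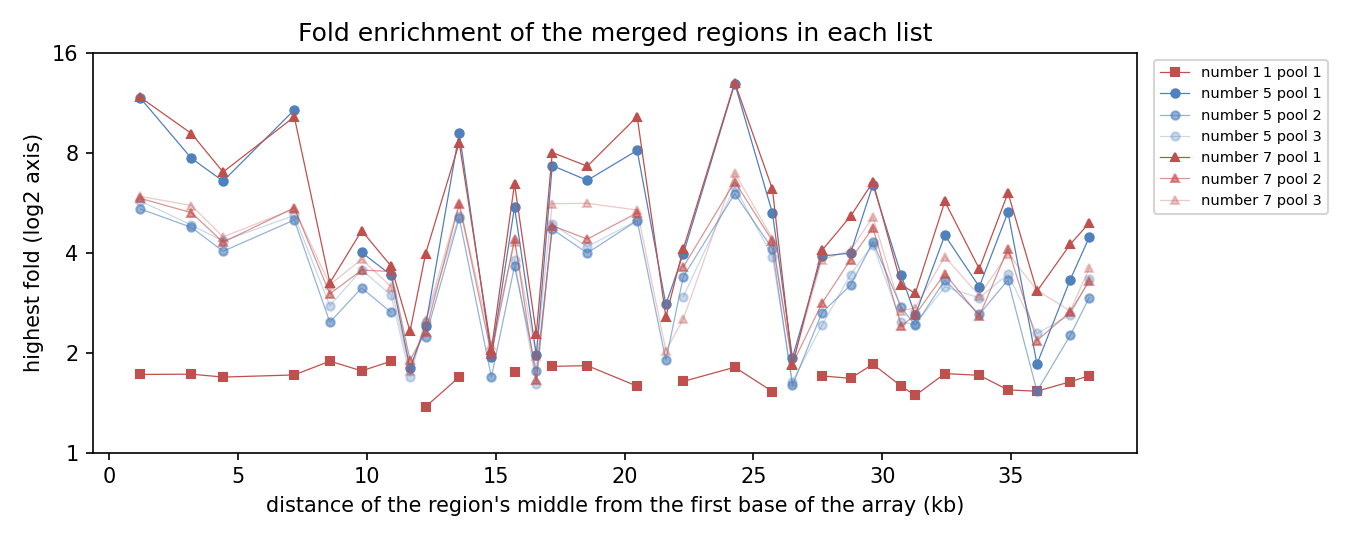
Highest deposited fold (log2 axis) of each array region in each of the 7 lists, against the distance of the region's middle from the first base of the array in kb. Colour gives genotype (red knockout, blue control), marker shape the library number and fading the pool. The 2 pool 1 lists of numbers 5 and 7 lie highest, and number 1 pool 1 stays between 1.37 and 1.89.

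Across the 26 regions shared by all 7 lists, the order of folds was alike in numbers 5 and 7. Spearman's rho for the 15 pairs of their 6 lists was 0.891 to 0.976. It was 0.396 to 0.506 for the 6 pairs with number 1 pool 1. These are descriptions over regions of 1 array, which share repeat sequence. Fold was higher in knockout number 7 than in control number 5 in 26 of 31 regions of pool 1, 27 of 30 of pool 2 and 29 of 30 of pool 3, by a median of 1.09 to 1.11 times. That compares 1 library number with another, so genotype and library cannot be told apart. The same count over regions elsewhere in the lists is not given here, so no trait of the array can be read from it. Median fold averaged over pools was 3.53 in number 5, and 2.80 over the 2 knockout numbers, a difference of -0.74 (exact permutation p = 1.0, n = 2 against 1, since number 3 has no value). The sign rests on number 1, which has a value in pool 1 only: the difference was -1.09 in pool 1 alone, 0.38 in pool 2 alone and 0.50 in pool 3 alone.

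Fold alone hides how much signal lay under the summits. A peak's fold and p-value together gave back a whole-number pileup, the number of fragments over the summit, and the local background it was set against, for every peak of the 7 lists. In number 1 pool 1 the median pileup of the array peaks was 281 (range 145 to 400) over a median background of 167. In pool 1 the medians were 72 over 16.1 for number 5 and 91 over 18.5 for number 7. In pools 2 and 3 they were 128 over 42.7 and 143.5 over 41.9 for number 5, and 160 over 44.8 and 158 over 43.7 for number 7. The list with the lowest folds therefore had the highest pileups in fragments, and its backgrounds were the highest too.

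The background over the array was high in each list relative to the lowest background of that list: the median was 13.6 to 15.3 times that lowest value in all 7 lists. The lowest backgrounds were 10.9 in number 1 pool 1, 1.11 to 2.91 in number 5 and 1.35 to 3.28 in number 7. Those of number 7 were 1.21, 1.12 and 1.15 times those of number 5 in pools 1 to 3. Set against that lowest value, the median pileup was smallest in number 1 pool 1, at 25.7 times. It was 64.7, 43.9 and 51.4 times in pools 1 to 3 of number 5, and 67.5, 48.8 and 49.3 times in number 7. Pool 1 folds of numbers 5 and 7 were a median of 1.34 to 1.47 times those of pools 2 and 3. Their pileups in fragments, not set against the lowest background, were 0.563 to 0.596 times as high. The highest pileup among all peaks of the 7 lists was 400, reached by 7 peaks, of which 1 was a satellite peak. Taken list by list, the highest pileup was 400 in each except number 5 pool 1, where it was 398. In all, 37 satellite peaks had 300 or more. What part this upper end has in the folds was not tested.

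**Figure D4:**
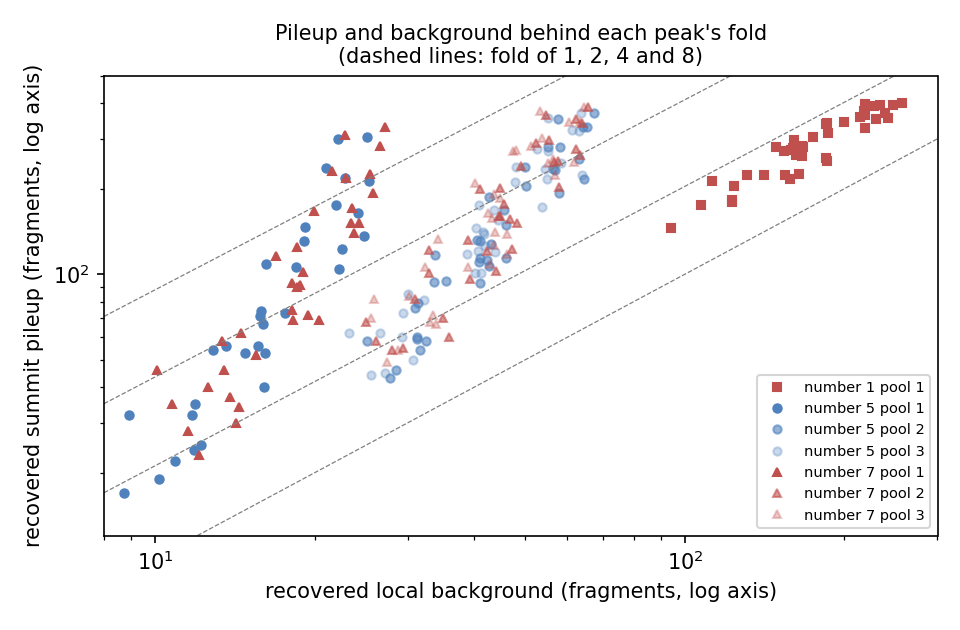
Recovered summit pileup against recovered local background (fragments, log axes) for the array peaks of 7 lists, with dashed lines at folds of 1, 2, 4 and 8. Colour gives genotype, marker shape the library number and fading the pool. Number 1 pool 1 lies at the upper right, with pileups of 145 to 400 over backgrounds of 94.4 to 257.

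Many summits, but not all, lay close to a summit of another list. The nearest summit of another list was a median of 13 bp away over 1458 comparisons, with 43.6% within 10 bp, 58.3% within 20 bp and 83.0% within 117 bp. The median was 13 bp between pools of 1 library number and also 13 bp between numbers 5 and 7 of 1 pool. From number 1 pool 1 to the other 6 lists it was 19.5 bp, with 50.8% within 20 bp. In 16 regions each of the 7 lists had exactly 1 peak. Their summits spanned 8 bp in chr9:3019732-3021252, from 3020972 to 3020980, and a median of 37.5 bp, with 156 bp as the widest span.

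Distances between neighbouring summits in a list were 381 to 2990 bp, with a median of 961 bp. Of 236 distances, 49, or 20.8%, lay within 20 bp of a whole multiple of 234 bp. That tolerance spans 17.5% of the period. At a tolerance of 10 bp, which spans 8.97% of the period, the share was 14.8%. Distances of the 7 lists repeat each other, so whether these shares differ from the span of the tolerance was not tested. Along the unit, counted from the first base of the array, 26.3% of the 243 summits lay in bases 157 to 195 and 22.6% in bases 118 to 156. Bases 196 to 234 held 34.0% of the CpG and 11.9% of the summits. A CpG lay within 10 bp of 25.5% of summits and of 37.7% of array bases.

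Among copies within 20 bp of the unit's length, coverage by peaks went with how closely a copy matched the common unit. Shorter copies did not all follow this. At chr9:3002504-3002632 (99.2% match) 81.4% of bases were in no peak, and at chr9:3031024-3031136 (99.1%) 97.3% were. At chr9:3015877-3016050 (99.4%), 74.1% were in a peak of all 7 lists. Of the copies near the unit's length, the 49 closest to it (96.6% to 98.7% match) had 82.1% of their bases in a peak of all 7 lists and 1.89% in no peak. The 48 in between had 47.8% and 18.1%. In the 49 farthest from it (78.7% to 95.3%), 31.6% of bases were in all 7 lists and 40.8% in none. Summits numbered 165, 38 and 21 in these groups. Genome copies of a 31-base stretch moved the same way, with medians of 34, 15 and 7, so match and copy number cannot be told apart here.

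CpG content did not follow that order, with means of 4.57, 4.50 and 5.18 CpG per copy from the closest to the farthest group. CpG density was 2.00 per 100 bp in bases covered by all 7 lists and 1.96 in bases covered by none. Their GC contents were 35.1% and 34.6%, their matches to the common unit 96.8% and 94.2%, and their median 31-base copies 23 and 12. There were 21 sets of identical copies, 57 copies in all, and members of a set were not always covered alike. In the set of 5 that holds chr9:3003100-3003333, that copy lay wholly in a peak of all 7 lists, while the identical copy at chr9:3033242-3033475 had 78.2% of its bases in no peak.

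**Figure D5:**
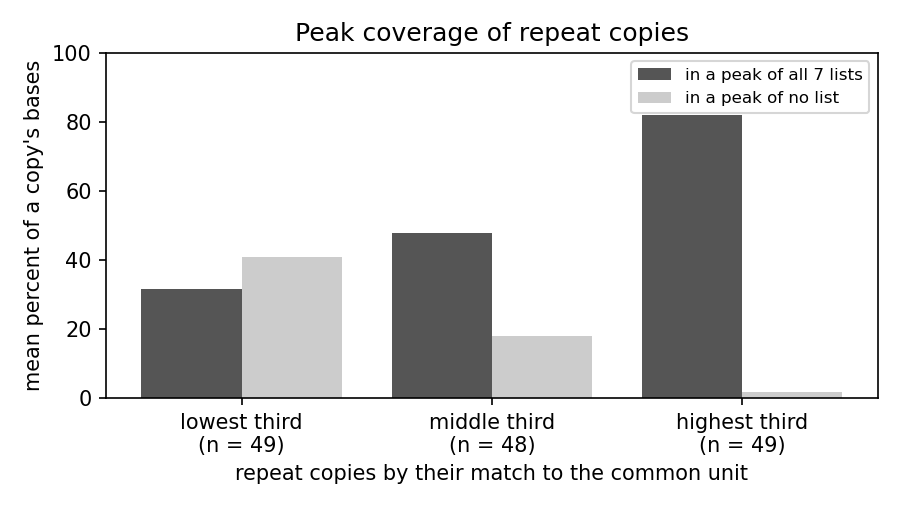
Mean percent of a repeat copy's bases in a peak of all 7 lists (dark bars) and of no list (light bars). The 49, 48 and 49 copies, all within 20 bp of the unit's length, are ordered by their match to the common unit. The closest group has 82.1% and 1.89%, the farthest 31.6% and 40.8%.

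GENCODE M21 places 10 genes in the array, and each overlapped at least 1 peak in all 7 lists. The lincRNA gene Gm26870 (chr9:3000282-3038313, minus strand) spans nearly all of it, and all 243 array peaks overlapped it, 49 of them on its exons. The other 9 are predicted protein-coding models on the plus strand, of unknown role: Gm10722, Gm11168, Gm10721, Gm10720, Gm10719, Gm10718, Gm10717, Gm17535 and Gm10715. Exons of some gene were overlapped by 169 of the 243 peaks. The share of array bases on exons is not given here, so no preference for exons can be read from that count. The region with the highest fold lies over coding exons of Gm10718 (chr9:3023547-3025218) and an exon of Gm26870. These models lie within the repeat array. The next gene, Mir101c (chr9:3038669-3038743), lies just past the array and had no peak.

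Beyond the array the window was nearly empty: 2 peaks in 961524 bp, both in number 7 pool 1 only. They were chr9:3623759-3623958, in an intron of Gucy1a2, which encodes a subunit of soluble guanylate cyclase, and chr9:3930299-3930498, between genes. Each was 200 bp wide with a fold of 1.70, a pileup of 3 over a background of 1.35 and a −log10 q of 0. The latter is the last peak inside the window, and the nearest peak past its limit was chr9:4799063-4799262, with the same fold, in the same list. No other gene beyond the array had a peak.

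Elsewhere on the assembled chromosomes, 9 loci outside the array held at least 20 of its 31-base stretches in a kilobase. Unplaced scaffolds were not searched for such loci. They held 16461 positions of these stretches, against 2286 on chromosomes outside the array. Of these, 5 had peaks in exactly the same 7 lists and none in the other 5 lists: on chromosome 2 near 98662001, chromosome 9 near 35305001, chromosome 12 near 3109001, chromosome 13 near 77438001 and chromosome 14 near 19415001. Their highest folds were 15.6, 14.5, 15.3, 3.58 and 11.6. On chromosome 4 near 3090001 there was 1 peak in 1 list, and the other 3 loci had no peak. The pattern was not confined to these loci. On chromosome 6 near 103649008, outside the 9 loci, the same 7 lists had peaks with a q-value under 0.05. The highest fold there was 15.96. Peaks at that threshold were found in 6 lists each on chromosome 9 near 24541920 and chromosome X near 143482906. Their highest folds were 5.63 and 6.47. What these places share with the array was not tested. Peaks at the start of chromosome 11, by contrast, were found in all 12 lists (453 peaks), and 1 of them had a q-value under 0.05.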

How the data were processed

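5hmC immunoprecipitation sequencing of c-kit+ mouse bone marrow gave 12 peak lists, 1 per library, not pooled over samples. Per the submitters' processing notes, Bowtie2, SAMtools and MACS2 were used with mm10. Versions, thresholds, read depth, treatment of reads that align to several places, and use of the inputs as control are not given in the sources used here. The deposited fold is the authors' linear ratio of a peak over its local background, the deposited −log10 p-value and −log10 q-value are the authors' own, and the deposited score repeats the −log10 p, multiplied by 10 and truncated. Start, end and summit offset are positions; they are printed counted from 1.

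Peaks were merged when they touched or overlapped. The repeat period, common unit (wraparound alignment, scores 2, -3 and -5) and exact counts of 31-base stretches came from the GRCm38 reference, genes from GENCODE M21. Pileup k and background were solved from fold = (k + 1)/(background + 1) and a Poisson p above k, the usual MACS2 relations, with a residual of at most 0.0003 on the −log10 p scale. This limit was set after seeing the residuals, and no satellite peak had a second solution. In the 5 lists without satellite peaks at most 20.0% of peaks gave a whole pileup, so none was taken. Genotypes were compared over library numbers (pools averaged first; log10 of count or length plus 1) by exact permutation, with pools taken from the titles as repeats of a number, which no label states; p-values measure only the spread between these libraries. The methods were tested on simulated data. Named regions are the first 10 by position of those in most lists, the highest fold, the widest and the farthest peak; the printed copies and identical sets were picked after values were seen. Members and lists were chosen with earlier results of these data known. Python 3.11.15, numpy 2.4.6, pandas 2.3.3, scipy 1.17.1 and numba 0.67.0 were used.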

Additional observations from a re-analysis of the deposited data

How the results depend on the processing

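The genotype comparisons rest on which library number is kept, and 9 of their 49 alternatives turned the direction. Over library numbers no p under 0.333 was possible, and with 12 libraries as separate samples, where lower p-values are possible, none passed. The ratio of counts was 0.311 without library number 3, 0.581 without library number 7 and 0.966 without pool 1, against 1.85. The ratio of covered lengths was 0.0341 without library number 3 and 0.171 without library number 7, against 5.46. The difference in share was -0.67 percentage points without library number 3 and -0.98 without pool 1. The difference in median fold was 0.39 without library number 1 and 0.44 without pool 1. With 12 libraries as separate samples and the pool as a replicate block, the values were 1.85, 5.46, 4.40 and -0.07, with exact permutation p from 0.537 to 1.0. The -0.07, for median fold, rests on the 7 lists with peaks only, with 1 list per genotype in pools 2 and 3. Labels share replicate numbers through the pools only, so no other paired analysis was made.

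The number of regions with peaks of both genotypes was 28 at q under 0.05, 17 when peaks up to 200 bp apart were merged and 0 without library number 5, since number 3 has no peak. The share of summit distances near a multiple of the period was 14.8% at a tolerance of 10 bp, which spans 8.97% of the period. Of 61 alternatives computed, 49 kept direction or stayed within limits. A further 1 could not be computed: median fold without library number 5 leaves no control. Read depth is unknown, and reads from unassembled satellite copies cannot be told from those of this array.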
